A study of Mus musculus with 9 samples.

Results

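The RNA that an antibody against N4-acetylcytidine (ac4C) recovered from wild-type mouse testis was compared with the poly(A) RNA that went into the precipitation. The comparison takes 6 of the 9 testis libraries, 3 of the antibody-recovered RNA (the acRIP group) and 3 of the starting RNA (the input group), and the other 3, recovered with a rabbit control immunoglobulin (the IgG group), are set beside it. All 9 libraries are labelled as poly(A) RNA of WT male testis, with no strain or age in the labels, and no treatment separates them apart from the antibody. By the study's methods, poly(A) RNA was mixed with a synthetic, acetylated β-globin RNA before precipitation, and the libraries were made by Smart-seq2, which starts from oligo(dT) primers and amplifies the cDNA. Since the recovered RNA was not quantified, every value is a share of a library and not an amount of RNA.

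N4-acetylcytidine is a cytidine that carries an acetyl group on its base. In mammals the acetyltransferase NAT10 places it in 18S ribosomal RNA and in certain cytosolic tRNAs, and the study asked about its deposition in mRNA. Testis is rich in germ cells that pass through meiosis and then reshape into sperm, and its poly(A) RNA is accordingly dominated by transcripts of spermatocytes and spermatids.

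The table listed 55401 genes, 22510 of which passed the filter on low counts and were tested, and 12731 of these were well counted, that is, had a mean of at least 100 counts over the 6 acRIP and input libraries. Between 22206 and 22402 genes had a count in an acRIP library, against 28552 to 29642 in an input library. After scaling to the lowest total of the 6 acRIP and input libraries, the input libraries had 28202 to 28682. The log2 counts of well-counted genes correlated across genes at r = 0.991 to 0.992 among acRIP libraries, at 0.994 to 0.995 among input libraries and at 0.866 to 0.873 between the groups. Totals ranged from 16025779 to 18639134 counts in acRIP and from 22023925 to 31340090 in input. Among low counts, 81.9% to 84.3% were even in the 9 libraries, as when both mates of a pair are counted, and counting error is then understated.

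The recovered RNA differed from input in a broad set of genes, in both directions. A gene is called higher or lower below when its fold change was over 2 with a Benjamini-Hochberg adjusted p under 0.05 in edgeR's quasi-likelihood test. Of the well-counted genes, 1671 were higher in acRIP (13.1%) and 1484 were lower (11.7%). The balance of these calls turned under other scalings and another test, with 1507 higher and 1705 lower when scaled to total counts, 1569 and 1603 to the upper quartile, and 901 and 1090 with limma on log2(FPKM + 1). Of all tested genes, 3984 were higher (17.7%) and 5145 were lower (22.9%). The 3 acRIP libraries did not overlap the 3 input libraries in 1670 of the 1671 well-counted higher genes and in 1483 of the 1484 lower genes. Over all 12731 well-counted genes, 10008 had no overlap and 9732 had an adjusted p under 0.05. The median log2 fold change was -0.10 over tested genes and -0.05 over well-counted genes.

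IgG beads recovered a selection of RNA too. In the same fit, which shares the input libraries, 1259 well-counted genes were higher in IgG than in input (9.89%) and 477 were lower (3.75%), and over all tested genes the numbers were 3028 (13.5%) and 1626 (7.22%). Against IgG, with the acRIP libraries shared, 691 well-counted genes were higher in acRIP (5.43%) and 913 were lower (7.17%), or 2590 (11.5%) and 4701 (20.9%) of all tested genes. For the 1671 genes called higher over input, the median log2 fold change was 1.48 in acRIP over input, 1.19 in IgG over input and 0.36 in acRIP over IgG. For the 1484 genes called lower, these medians were -1.39, -0.53 and -0.95. The values of the 3 comparisons share libraries and are given side by side as a description.

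**Figure D1:**
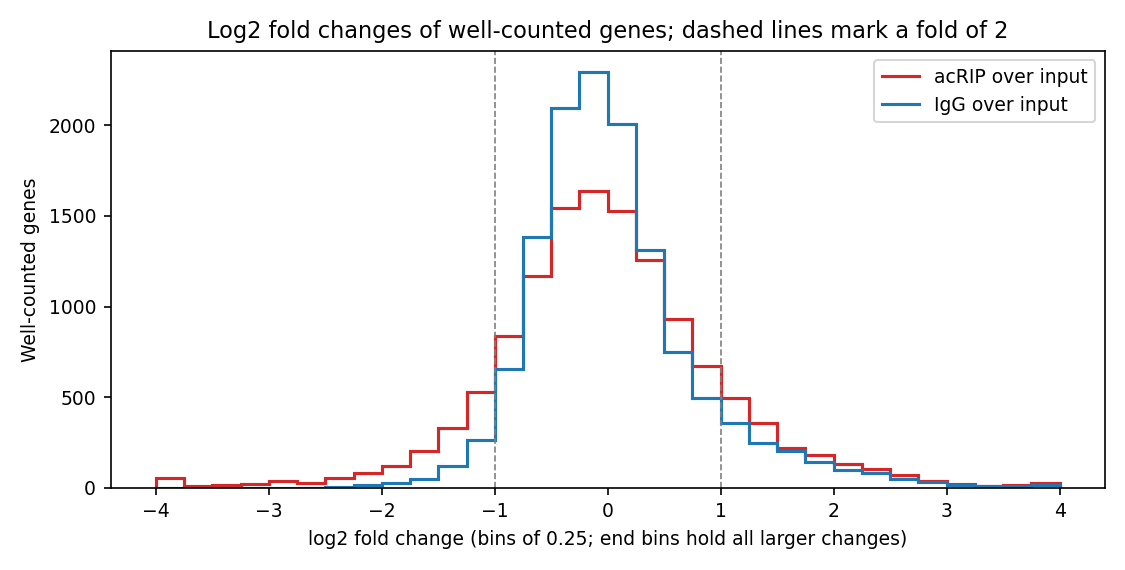
Number of well-counted genes (y axis) in bins of the log2 fold change (x axis) for acRIP over input (red) and IgG over input (blue), both against the same 3 input libraries. Beyond the dashed lines at a fold of 2, acRIP held 1671 genes called higher and 1484 called lower, and IgG 1259 and 477; the end bins collect all larger changes.

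Ribosomal RNA gained a larger share of the counts than any other gene. CT010467.1 is the annotated rRNA locus of chromosome 17 (chr17:39846353-39848201, plus strand, mm10) at which RefSeq names an 18S RNA related sequence, and it holds a copy of 18S ribosomal RNA, the RNA of the small ribosomal subunit. It took 0.613%, 0.575% and 0.54% of the counts of the 3 input libraries and 10.2%, 10.6% and 9.35% of those of the 3 acRIP libraries. The IgG libraries lay between, at a mean of 5.37% ± 0.212 (SD, n = 3), and no groups overlapped. In normalized CPM (counts scaled to a common library size) the locus went from 6010, 5600 and 5260 in input to 105000, 110000 and 95500 in acRIP, which is 18.4-fold higher (log2 4.20 ± 0.04 SE, adjusted p = 1.37e-37 from edgeR). The fold was 9.52 for IgG over input and 1.94 for acRIP over IgG, the last below the threshold of 2. The last 60 bases of the locus (chr17:39848142-39848201) are printed because the known ac4C site nearest to the 3′ end of 18S rRNA lies in a CCG, and the capitals mark the CCG, which occurs once in them.
CT010467.1 end: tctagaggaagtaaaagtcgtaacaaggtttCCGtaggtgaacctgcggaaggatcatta
Of the 1790 windows of 60 bases along the locus, 79.7% hold a CCG on this strand, and counts per gene do not show where on the locus the reads fell. A gene of the deposited table without a name in the annotation used here (chr17:39848103-39848827, minus strand) overlaps this end and runs beyond it. It rose from 6.54, 6.02 and 5.96 CPM in input to 194, 222 and 174 CPM in acRIP, with 140 to 152 CPM in IgG, and because the strand setting of the counting is not given in the sources used here, its reads and those of the neighbouring rRNA cannot be told apart.

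Among protein-coding genes, Lars2 gained the largest share. Lars2, which encodes mitochondrial leucyl-tRNA synthetase, had 126, 126 and 128 CPM in input and 4530, 4640 and 4220 CPM in acRIP, 35.3-fold higher, with IgG at 12.1-fold over input. Gm15564, annotated as an antisense gene on chromosome 16, moved alike, from 11.8 CPM on average in input to 471 CPM in acRIP (39.9-fold; IgG 11.6-fold over input). At neither gene did any groups overlap. The merged exons of Gm15564 and Lars2 share an identical run of 51 bases on the same strand, against 12 on the opposite strand. Together both genes took 0.0142% of input counts and 0.478% of acRIP counts, and the call at each was also made against IgG (2.93-fold and 3.44-fold).

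**Figure D2:**
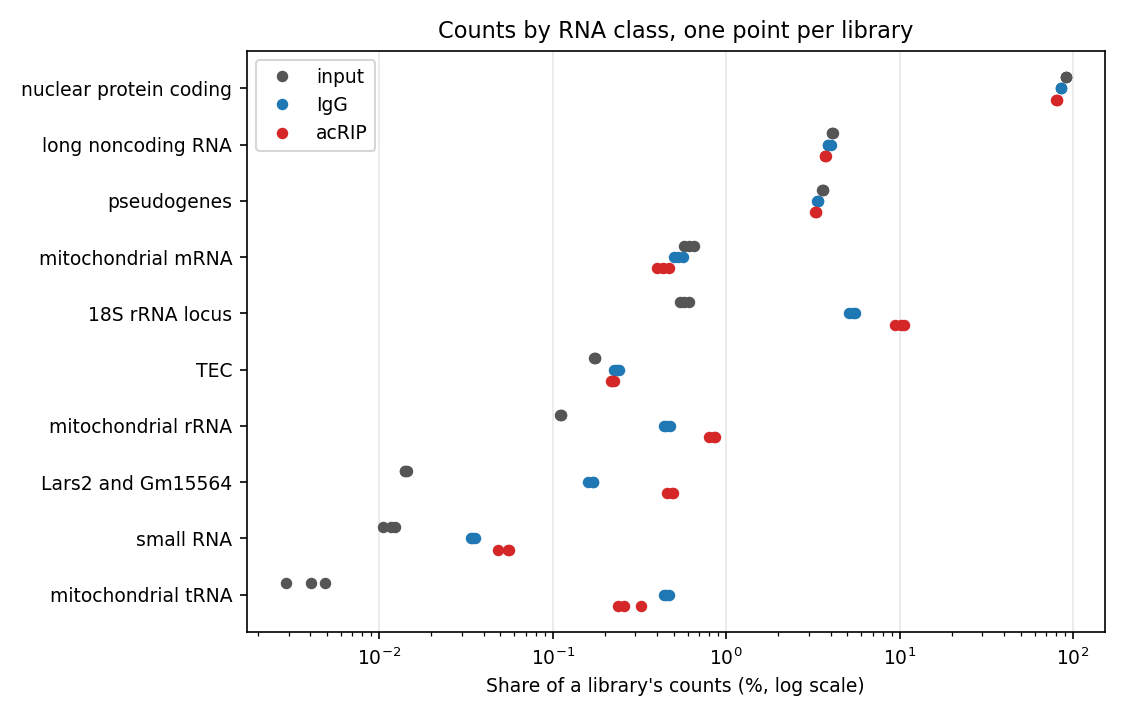
Share of each library's counts (x axis, %, log scale) in classes of RNA, with 1 point per library for input (gray), IgG (blue) and acRIP (red). The 18S rRNA locus went from 0.54% to 0.613% in input to 9.35% to 10.6% in acRIP and mitochondrial tRNA from 0.00393% to 0.273%, while nuclear protein-coding genes held 90.7% and 80.6% of the counts.

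The mitochondrial genome split by kind of RNA. Its 12S and 16S ribosomal RNAs, mt-Rnr1 and mt-Rnr2, were 6.36-fold and 8.11-fold higher in acRIP than in input. For mt-Rnr2 this was a step from 1010, 995 and 1020 CPM to 8340, 7840 and 8340 CPM, with IgG at 4050 to 4400 CPM. Of the mitochondrial tRNA genes, mt-Tq and mt-Tc, the tRNAs for glutamine and cysteine, reached the mean of 100 counts, mt-Tc through the acRIP libraries alone. The other 6 that were tested had mean levels of only 0.0209 to 0.285 CPM in input and entered the test through the recovered groups in which they are high, so that neither their calls nor that of mt-Tc are a result about the class. mt-Tq had 46.6, 38.3 and 27.2 CPM in input and 2420, 3320 and 2620 CPM in acRIP, 73.8-fold higher. Its IgG libraries were higher still, at 4430, 4340 and 4630 CPM, so that no acRIP library reached the lowest IgG library. mt-Tc had 0.25, 0.266 and 0.131 CPM in input, 21.3, 19.8 and 16.8 CPM in acRIP and 18.5 to 21.6 CPM in IgG, and the acRIP and IgG libraries overlapped. These tRNA genes are short, and both are encoded on the minus strand, opposite to most of the mitochondrial mRNAs. They are shown whole, as the RNAs with the largest shifts against input among well-counted mitochondrial genes (mt-Tq chrM:3772-3842, mt-Tc chrM:5192-5257, both minus strand, mm10), with no capitals.
mt-Tq: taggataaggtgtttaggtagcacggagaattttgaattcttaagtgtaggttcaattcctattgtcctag
mt-Tc: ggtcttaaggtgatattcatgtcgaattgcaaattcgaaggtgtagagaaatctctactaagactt
Among the mitochondrial mRNAs, 1 of 10 tested was called higher (10%, against 17.7% of all tested genes), mt-Nd2, a subunit of complex I, at 161 ± 7.49 CPM in input and 373 ± 19.4 CPM in acRIP (SD, n = 3; 364 ± 19.9 in IgG). mt-Co1, the catalytic subunit of cytochrome c oxidase, had 3300, 3530 and 3810 CPM in input and 1780, 1590 and 1960 CPM in acRIP, a log2 fold change of -0.997, just short of the threshold. Mitochondrial genes are transcribed as long precursors from both strands, and without the strand setting reads of neighbouring genes cannot be fully assigned.

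The β-globin gene, part of whose sequence the added RNA carries, stood higher in acRIP than in IgG or input. Hbb-bs, which encodes adult β-globin, had 118, 116 and 118 CPM in input, 157, 153 and 166 CPM in IgG and 671, 892 and 791 CPM in acRIP. The acRIP libraries lay above all others, 6.69-fold over input and 4.94-fold over IgG (log2 2.74 ± 0.06 SE and adjusted p = 3.41e-27 from edgeR over input), whereas IgG was 1.35-fold over input and not called. Of the 195 bases of the probe, 122 match chr7:103827934-103828055 of mm10 without a break, within Hbb-bs on the minus strand, and 44 of these bases lie in an annotated exon (103828012 to 103828096). The stretch at chr7:103827934-103828041 is printed to show where the probe and the gene overlap, and its capitals mark the 30 bases that lie in that exon.
Hbb-bs probe stretch: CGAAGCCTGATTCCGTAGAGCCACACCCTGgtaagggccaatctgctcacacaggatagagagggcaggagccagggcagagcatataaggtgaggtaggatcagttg
The share of probe reads in the count was not tested. The other globin genes were close to IgG. Hba-a1, an α-globin gene, had 12.3, 11.5 and 12.3 CPM in input, 27 ± 3.86 CPM (SD, n = 3) in IgG and 25, 27.8 and 27.8 CPM in acRIP, 2.23-fold over input and level with IgG. Hbb-bt, the second adult β-globin gene, was 2.55-fold over input and 1.28-fold over IgG. Alas2, which makes the first step of haem synthesis in red blood cells, was 9.34-fold lower in acRIP than in input, at 562, 439 and 470 counts in input and 36, 34 and 32 counts in acRIP, with 240, 304 and 264 counts in IgG (1.24-fold lower than input).

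Classes of noncoding RNA other than rRNA and tRNA differed in smaller ways. Small RNA genes (snoRNA, snRNA, miRNA and the like) took 0.0115% ± 0.000992 of input counts and 0.0534% ± 0.00415 of acRIP counts (SD, n = 3), with IgG at 0.0346%. Of the tested genes, 19 of 24 snoRNA genes were called higher and 0 lower in acRIP, with 20 of 29 snRNA genes higher and 2 lower, and 18 of 28 miRNA genes higher and 3 lower, against 17.7% higher and 22.9% lower over all tested genes. Most of them had few counts (median 12 per library for miRNA genes), they pass the filter partly through the group in which they are high, and those inside introns of other genes can hold reads of the host transcript. Among long intergenic noncoding RNAs (lincRNA), 345 of 2040 tested genes were higher (16.9%) and 645 lower (31.6%), and among the 714 well-counted ones 66 were higher and 98 lower (13.7%, against 11.7% of all well-counted genes). Transcribed loci awaiting experimental annotation (TEC) had 265 higher (37.1%) and 193 lower (27%) of 714 tested, the latter falling to 107 in a fit of the 6 libraries alone and to 104 with halved counts, and 18 higher (20.5%) and 9 lower of 88 well-counted. Antisense genes and processed pseudogenes had medians close to that of all genes, at -0.025 and 0.0215, and their sign changed between settings.

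Outside the 18S locus the balance of the large classes hardly moved. Without its counts, nuclear protein-coding genes held 91.2% ± 0.0292 of input and 89.5% ± 0.0192 of acRIP counts (SD, n = 3), which did not overlap. Long noncoding RNAs then held 4.13% and 4.15%, and pseudogenes 3.62% and 3.65%, and for both the 2 groups overlapped. An exact permutation test of 3 against 3 libraries cannot go below p = 0.1, so no p is given for a share.

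Single noncoding genes showed larger steps than their classes. Malat1, a long RNA retained in nuclear speckles, had 24.8, 23.9 and 20.9 CPM in input and 161, 154 and 153 CPM in acRIP (6.71-fold), with IgG at 133 to 147 CPM. Bc1, a small cytoplasmic RNA known from neurons and germ cells, was 17-fold higher, from 0.737 to 13.1 CPM on average, with IgG at 10.1 CPM (13.2-fold over input). Neat1, the scaffold of paraspeckles, was 2.51-fold higher, at 13.8 ± 1.32 CPM in input, 12.9 ± 1.61 in IgG and 34.7 ± 2.92 in acRIP (SD, n = 3), so that its IgG level stayed at that of input. A mixed list of nuclear, imprinted and snoRNA-host long noncoding RNAs had 22 tested members. Of these, 7 were higher (31.8%, against 17.7% of all tested genes) and 2 lower (9.09%, against 22.9%). The snoRNA hosts Snhg17 and Snhg18 were among the higher members and Snhg11 among the lower, so the count is not one of nuclear RNAs alone. Gm31831, a lincRNA on chromosome 5, went the other way, with 273, 290 and 206 counts in input and 0, 0 and 2 in acRIP.

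The pseudogene Olfr647-ps1 on chromosome 7 had no count in input and reached the mean of 100 counts through the acRIP libraries alone. It had 0 counts in all 3 input libraries, 236, 284 and 227 counts in IgG and 1503, 1149 and 835 counts in acRIP. Against 3 counts per input library this is at least 591-fold higher in acRIP, or at least 296-fold against 6 counts, as when both mates of 3 pairs are counted. A count of 0 does not show that the RNA is absent from the starting material.

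Apart from Lars2, the well-counted protein-coding genes with the largest rises were scarce in input. Those described here reached a mean of 100 counts over the acRIP and input libraries through the acRIP libraries in which they were high, so that their scarcity in input is no result. Zar1, an RNA-binding protein known from oocytes, had 0.25, 0.266 and 0.263 CPM in input and 19.8, 17.7 and 14.9 CPM in acRIP. These are 8, 6 and 6 counts against 307, 317 and 244, 65.9-fold higher (log2 6.04 ± 0.35 SE), and IgG stayed at 0.951, 0.954 and 3.01 CPM. Enho, the precursor of the peptide adropin, was 46.5-fold over input and 9.07-fold over IgG. Iffo2, an intermediate filament family member, and Rnf217, a RING-type ubiquitin ligase, were 21.2-fold and 15.5-fold over input and 9.05-fold and 7.11-fold over IgG. In these 4 genes each acRIP library lay above every IgG and input library.

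For other genes of this group the control beads recovered nearly as much. Sema6c, a transmembrane semaphorin, was 27.3-fold over input in acRIP and 20.4-fold in IgG. Rbmxl2, a germ cell RNA-binding protein of the hnRNP G family, was 20.3-fold over input in acRIP and 17.2-fold in IgG. Mgat4b, a glycosyltransferase of N-glycan branching, was 17.5-fold and 13.1-fold over input in acRIP and IgG. Dnm1, the GTPase dynamin of membrane fission, stood between, at 17.7-fold in acRIP and 5.48-fold in IgG, as did Prr7, a proline-rich membrane protein, at 15.4-fold and 6.63-fold. Across all 70 well-counted genes with a fold over 8, 51 of them protein coding, the median log2 fold change was 3.61 over input and 0.39 over IgG, and their median count was 234 against 510 for all well-counted genes.

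At the other end, transcripts present in input and in IgG had next to no counts in acRIP. Arfip2, a partner of small ARF and RAC GTPases, had 317, 258 and 249 counts in input, 127, 160 and 110 in IgG and 0 in each acRIP library. Lamb3, a laminin chain, had 292, 313 and 178 counts in input and 0 in each acRIP library. Mtrf1, a mitochondrial translation release factor, Siah1b, a ubiquitin ligase, and Mettl15, a methyltransferase of mitochondrial rRNA, were also at 0 in all acRIP libraries. Against 3 counts per library, acRIP was at least 59.3-fold lower for Arfip2, 56.7-fold for Lamb3, 56.3-fold for Mtrf1, 51.5-fold for Siah1b and 47.8-fold for Mettl15, and against 6 counts at least 29.7, 28.3, 28.1, 25.8 and 23.9-fold. Lrrc47, a leucine-rich repeat protein, had 480, 364 and 395 counts in input, 117, 186 and 150 in IgG and 0, 2 and 2 in acRIP. Prr32, Pskh1, Wdr6 and Mcm4, the last a subunit of the replicative helicase, had 212 to 384 counts in input and 0 to 6 in acRIP.

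Further genes were near 0 in some of the acRIP libraries. Of 10540 genes with a mean of at least 200 counts in input, 9 had at most 3 counts in all 3 acRIP libraries, 9 more in 2 of them and 14 more in 1. None of the 10540 genes had so few counts in any IgG library. Per library, the 9 genes had 173 to 480 counts in input, 35 to 206 in IgG and 0 to 2 in acRIP. Among the 9 that were near 0 in 2 libraries, Kcnk5, a potassium channel, had 2, 0 and 10 counts in acRIP, and Idh2, the mitochondrial isocitrate dehydrogenase, had 6, 0 and 0; both were picked from these 9 after their values were seen. All tested genes together included 1874 with 0 counts in every acRIP library, 7 of them well counted, and 160 with 0 counts in every input library. Over the 102 well-counted genes with a fold over 8 lower, 86 of them protein coding, the median log2 fold change was -3.89 over input and -3.44 over IgG, with a median of 148 counts.

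**Figure D3:**
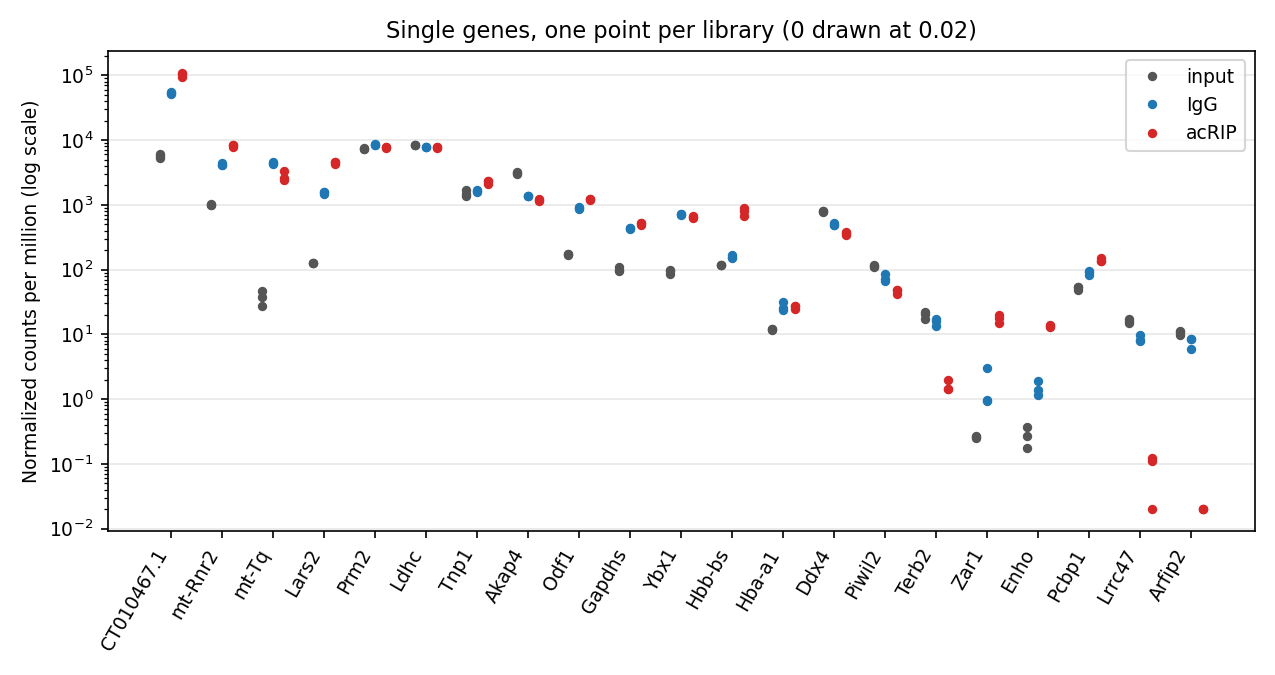
Normalized CPM (y axis, log scale) of single genes (x axis), with 1 point per library for input (gray), IgG (blue) and acRIP (red), and 0 drawn at 0.02. CT010467.1, mt-Rnr2, Lars2, Hbb-bs, Zar1 and Enho were highest in acRIP, Prm2 and Ldhc were near level in the 3 groups, and Arfip2 had no count in acRIP.

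Protamine and transition protein transcripts, among the most abundant per length in input, stayed within a fold of 2 of their input level. Prm2, a protamine that packs sperm DNA, had 7580, 7330 and 7240 CPM in input and 7920, 7920 and 7670 CPM in acRIP, a fold of 1.06. Prm1, Tnp2 and Tnp1, the other main protamine and the transition proteins that precede protamines, had folds of 1.24, 1.26 and 1.5. In normalized CPM the acRIP libraries lay above the input libraries for all 4, and 10008 of 12731 well-counted genes had no overlap in either direction. As a plain share of counts, Prm2 stood at 0.756% ± 0.0152 in input and 0.76% ± 0.00872 in acRIP (SD, n = 3). None of the 7 tested protamine and transition protein genes was called, beside 13.1% of all well-counted genes higher and 11.7% lower. Nothing is read from 0 of so few genes. Ldhc, the lactate dehydrogenase of germ cells, was at 8250, 8310 and 8340 CPM in input and 7820, 7640 and 7900 CPM in acRIP (log2 -0.09). Other abundant transcripts were further from input. Fhl4, a testis LIM protein, had 5220, 5440 and 5780 CPM in input and 3050, 2960 and 3250 CPM in acRIP (log2 -0.83, not called), and Dynlt1-ps1, a processed pseudogene, had 1990, 2040 and 2110 CPM in input and 1170, 1130 and 1260 CPM in acRIP (log2 -0.79, not called).

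Of 21 tested sperm tail genes, all well counted, 3 were called higher (14.3%, near the 13.1% of all well-counted genes) and 1 lower (4.76%, below the 11.7%). Odf1, an outer dense fibre protein, had 173, 166 and 177 CPM in input and 1210, 1210 and 1170 CPM in acRIP, 6.94-fold higher. Gapdhs, the glycolytic enzyme of the fibrous sheath, was 5.08-fold higher, at 109, 97.7 and 96 CPM against 524, 532 and 487 CPM. Fsip2, a large fibrous sheath protein, was 3.05-fold higher. Akap4, the main protein of that sheath, had 3040, 3080 and 3170 CPM in input and 1150, 1180 and 1210 CPM in acRIP, 2.62-fold lower. In all 4 genes IgG had moved in the same direction, by 5.20-fold for Odf1, 4.27-fold for Gapdhs and log2 1.43 for Fsip2 upward and by 2.26-fold for Akap4 downward. The remaining 17 tail genes were not called, and the median of the list was -0.17.

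Genes of the acrosome, the vesicle with which sperm penetrate the egg coat, were in part lower. Of 19 tested, all of them well counted, 6 were lower (31.6%, against 11.7% of all well-counted genes) and 0 higher (against 13.1%), with a list median of -0.34 against -0.10 over all tested genes. Hyal5, a hyaluronidase, was lowest at 162, 177 and 176 CPM in input and 44.4, 51.4 and 56.5 CPM in acRIP, 3.38-fold lower. Zp3r, Zpbp2, Spam1, Izumo1 and Dpy19l2, which serve egg coat binding, fusion with the egg and acrosome formation, were 2.44, 2.28, 2.24, 2.20 and 2.18-fold lower. The highest members, Zpbp and Tmem95, which serve acrosome shape and fusion with the egg, had log2 fold changes of 0.58 and 0.50 without overlap between acRIP and input and were not called. The median of the list was -0.44 in IgG over input and -0.01 in acRIP over IgG.

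Genes of meiosis were lower in part, and here IgG stayed closer to input. Of 32 tested genes of synapsis and recombination, 11 were lower (34.4%, against 22.9% of all tested genes) and 0 higher (against 17.7%). Of the 27 well-counted ones, 8 were lower (29.6%, against 11.7% of all well-counted genes) and 0 higher (against 13.1%). The median of the 32 genes was -0.43 in acRIP over input and -0.19 in IgG over input. Terb2, which ties meiotic telomeres to the nuclear envelope, had 20.5, 17.3 and 21.8 CPM in input, 13.5, 16.2 and 17.2 CPM in IgG and 1.42, 1.45 and 1.95 CPM in acRIP, 12.3-fold lower. Msh5 and Msh4, partners in crossover formation, were 6.14-fold and 5.54-fold lower. For Msh5 the acRIP libraries were uneven, with 21, 14 and 48 counts against 367, 252 and 187 in input. Hfm1, a meiotic helicase, was 4.05-fold lower, and Hormad2, Tex11, Stag3 and Spo11, the last of which makes the breaks that start recombination, were 2.56, 2.44, 2.13 and 2.06-fold lower. Spata22 was lower as well, and Rad21l and Mei4 were at 0 in all acRIP libraries, with 0.694 ± 0.248 and 1.39 ± 0.793 CPM in input (SD, n = 3), and Mei4 was at 0 in IgG too. Mlh3 and Syce2, a crossover factor and a synaptonemal complex protein, had log2 fold changes of 0.70 and 0.67 and were not called.

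Germ granule and piRNA genes were seldom called. Of 22 tested, all of them well counted, 3 were lower (13.6%, near the 11.7% of all well-counted genes) and 0 higher (against 13.1%). The median was -0.57, with -0.21 in IgG over input. Piwil2, a PIWI protein that binds piRNAs, had 109, 116 and 115 CPM in input and 42.1, 49 and 48.9 CPM in acRIP, 2.42-fold lower. Ddx4, the germ cell helicase VASA, had 764, 790 and 798 CPM in input and 372, 340 and 374 CPM in acRIP, 2.17-fold lower. Tdrd3, a tudor domain protein, was 2.55-fold lower. None of the 3 overlapped between groups, which held for 1483 of all 1484 well-counted lower genes. The highest members, Henmt1 and Mybl1, had log2 fold changes of 0.61 and 0.39 and were not called.

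Ybx1 and Ybx3, cold shock proteins that store mRNA in germ cells, had 99.2, 93.7 and 85.5 CPM and 105, 96.6 and 86.2 CPM in input and 658, 677 and 622 CPM and 700, 690 and 667 CPM in acRIP, 7.02-fold and 7.13-fold higher. IgG was 7.66-fold and 5.91-fold over input for them. They are shown because of their abundance and were chosen after their values were seen. Pgp, phosphoglycolate phosphatase, gained most counts after the RNAs above, from 602, 536 and 522 to 1950, 2050 and 1860 CPM (3.53-fold; IgG 3.33-fold). Besides Akap4 and mt-Co1, the genes that lost most counts were Fhl4, Adam5, a sperm surface protein, and Ubb, ubiquitin, with log2 fold changes of -0.83, -1.27 and -0.78, of which Adam5 was called.

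Of 84 tested cytosolic ribosomal protein genes, 16 were higher (19%, against 17.7% of all tested genes) and 6 lower (7.14%, against 22.9%). Of the 74 well-counted ones, 14 were higher (18.9%, against 13.1% of all well-counted genes) and 3 lower (4.05%, against 11.7%). The median was 0.54 in acRIP over input, 0.37 in IgG over input and 0.20 in acRIP over IgG. Rps2 rose from 9.95, 10.1 and 9.56 CPM to 33, 33.4 and 32.5 CPM (3.33-fold), and Rplp2, a protein of the ribosomal stalk, from 65, 57.1 and 54.6 CPM to 186, 181 and 159 CPM (2.97-fold). Rpl5 and Rps6 were 2.97-fold and 2.35-fold lower. Ribosomal protein genes have many processed pseudogenes, and since uniquely mapped reads were counted, part of their reads can be missing or assigned to copies. Among translation factors 12 of 66 were higher (18.2%) and 6 lower (9.09%), or 11 (18.3%) and 5 of the 60 well-counted ones, with Eif3b, a scaffold of initiation factor 3, at 5.40-fold higher (IgG log2 2.68 over input) and Eif2a at 3.14-fold lower. Eef1a1, the elongation factor that delivers tRNAs, had 1320, 1360 and 1260 CPM in input and 1400, 1410 and 1400 CPM in acRIP, a log2 fold change of 0.10.

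Counts for genes of mitochondrial proteins and the proteasome stand beside 17.7% higher and 22.9% lower of all tested genes. Most of these members were well counted, and of all well-counted genes 13.1% were higher and 11.7% lower. Calls were fewer at high counts, with 7.1% higher and 8.37% lower at 1600 to 3200 counts. Of 79 tested nuclear subunits of oxidative phosphorylation, 4 were higher (5.06%) and 1 lower (1.27%), with a median of 0.30 and a median count of 2792. Of the 74 well-counted ones, 3 were higher (4.05%) and 0 lower. Atp5e, a small subunit of ATP synthase, was 2.46-fold higher, at 211, 189 and 170 CPM in input and 488, 499 and 417 CPM in acRIP. Of 75 mitochondrial ribosomal protein genes, 2 were higher (2.67%) and 3 lower (4%), and of 37 proteasome genes, 3 were higher (8.11%) and 1 lower (2.7%). Splicing proteins of the SR and hnRNP families had 8 of 31 higher (25.8%, against 17.7%) and 3 lower (9.68%, against 22.9%), with a median of 0.30. In IgG over input, 9 of the 31 were higher and 1 lower (median 0.22), against 13.5% and 7.22% of all tested genes. In acRIP over IgG, 1 was higher and 2 lower (median 0.01), against 11.5% and 20.9% of all tested genes. Hnrnpl led the list at 5.98-fold (12.8, 12 and 11.5 CPM in input, 75.8, 69.5 and 72.7 CPM in acRIP), with IgG at log2 1.36 over input.

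Collagen and zinc finger genes had large shares of members lower. Of 37 tested collagen genes, 19 were lower (51.4%, against 22.9% of all tested genes) and 2 higher (5.41%, against 17.7%), with a median of -1.24 in acRIP over input and -0.32 in IgG over input. The lower median came from thinly counted members, since the 17 well-counted collagens had a median of -0.05, with 5 lower (29.4%, against 11.7% of all well-counted genes) and 1 higher. Col4a2, a chain of basement membrane collagen, had 258, 223 and 191 counts in input and 42, 54 and 48 in acRIP, 3.03-fold lower. Col5a1, a fibrillar chain, was 4.28-fold lower, whereas Col27a1 was 7.16-fold higher, with 66, 68 and 60 counts in input and 262, 354 and 295 in acRIP. Of 350 tested Zfp genes, 123 were lower (35.1%, against 22.9%) and 51 higher (against 17.7% of all tested genes; median -0.39), 30 of them at 0 in all acRIP libraries, and of the 207 well-counted ones 50 were lower (24.2%, against 11.7%) and 31 higher (15%, near the 13.1% of all well-counted genes; median -0.15). Of 35 tested kinesins, 6 were lower (17.1%, against 22.9%) and 3 higher (8.57%, against 17.7%), and of the 26 well-counted ones 4 were lower (15.4%, against 11.7%) and 1 higher. Among them, Kif20a, a motor of cytokinesis, was 8.73-fold lower, from 65.1, 78 and 71.3 to 9.53, 6.87 and 8.22 CPM, and Kif17 was 3.04-fold higher. Among clustered histone genes, 7 of 23 were lower (30.4%) and 4 higher (17.4%), and none of the 7 well-counted ones was called.

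**Figure D4:**
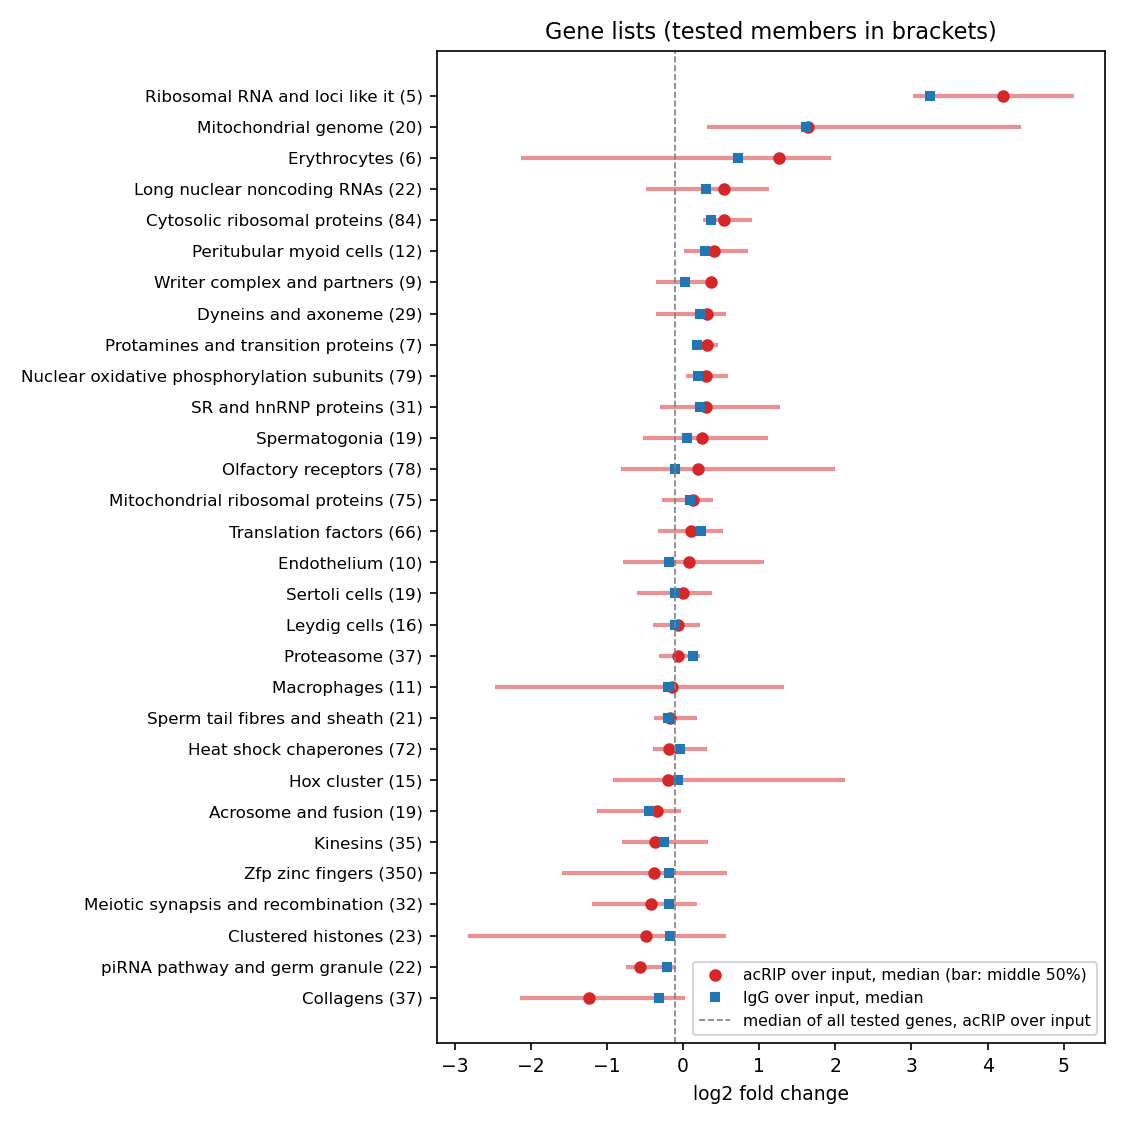
Median log2 fold change (x axis) of the tested members of gene lists (y axis, number of members in brackets) in acRIP over input (red points, bars over the middle 50% of members) and in IgG over input (blue squares). The dashed line is the acRIP median of all tested genes, -0.10. The list of rRNA and loci set beside it (CT010467.1, mt-Rnr1, mt-Rnr2, Lars2 and Gm15564) had the highest median, 4.20, which is the value of CT010467.1. Likeness of Lars2 and Gm15564 to rRNA was not tested. Collagens had the lowest median, -1.24.

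Markers of the testis cell types were few in each list, and their counts are to be read against the 17.7% higher and 22.9% lower of all tested genes. Leydig cell genes had 1 of 16 called (6.25%), Por, the reductase that serves steroid synthesis (5.28-fold lower), while Cyp11a1, the first enzyme of steroid synthesis, and Star, the cholesterol transporter, had log2 fold changes of -0.26 and 0.21. Sertoli cell genes had 4 higher (21.1%) and 3 lower (15.8%) of 19. Aard was 8.76-fold higher (IgG 7.33-fold over input) and Trf, the iron carrier, 7.5-fold lower (IgG 1.55-fold lower than input). Clu, clusterin, had a log2 fold change of -0.44. Spermatogonial genes had 5 higher (26.3%) and 2 lower (10.5%) of 19, with Gfra1, a receptor of stem cells, 3.63-fold lower and Id4 and Foxo1, transcription regulators of the same cells, 5.78-fold and 6.33-fold higher (IgG 7.17-fold and 3.94-fold over input). Peritubular myoid genes had 3 higher (25%) and 2 lower (16.7%) of 12, endothelial genes 2 (20%) and 2 of 10, and macrophage genes 3 (27.3%) and 4 (36.4%) of 11. All lower members of these 3 lists had few counts. Of the 8 myoid, 4 endothelial and 5 macrophage genes that were well counted, 0 were lower and 1 in each list was higher. Of all well-counted genes 13.1% were higher and 11.7% lower, and nothing is read from so few members. In heat shock chaperones, 6 of 72 were higher (8.33%) and 5 lower (6.94%). Hspa1l, a chaperone of spermatids, rose from 26.4, 29.4 and 26.6 to 193, 194 and 179 CPM (6.89-fold, with IgG 5.57-fold over input).

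Of 9 tested genes of the writer complex and its partners, 1 was called, Pcbp1, an RNA-binding adaptor, which was higher (11.1%, near the 13.1% of all well-counted genes), from 54.5, 53.8 and 48.7 CPM in input to 135, 153 and 134 CPM in acRIP (2.69-fold), with IgG at 83 to 93.5 CPM. Its relative Pcbp2 had 96.6, 93.1 and 95.9 CPM in input and 165, 165 and 170 CPM in acRIP, a log2 fold change of 0.81 below the threshold but without overlap, with IgG at 0.10. Nat10, the acetyltransferase, Tardbp, which encodes TDP43, and Thumpd1, a tRNA-binding partner of NAT10, had log2 fold changes of 0.42, 0.19 and -0.36 and were not called. Among genes that the study names for testis or lists mouse primers for, Uhrf2, a ubiquitin ligase that reads chromatin marks, was 5.81-fold higher, at 4.94, 5 and 6.14 CPM in input and 34.2, 30 and 29 CPM in acRIP. Hoxd9, Hoxb7 and Rnf183 were called higher on few counts, with 8 to 16, 0 to 8 and 2 to 8 counts in input and 82 to 106, 43 to 52 and 48 to 90 in acRIP. Genes of that kind were chosen by the study with these libraries known, so its direction is not independent evidence. Gapdh, which has many pseudogene copies, had 25, 40 and 18 counts in input and 0, 2 and 0 in acRIP.

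Recovery varied with base content. In well-counted genes with over 60% GC in their merged exons, the median log2 fold change was 0.64, with 109 genes higher and 12 lower of 296. It was -0.18, with 92 higher and 136 lower of 809, in genes with at most 40% GC, and each of the 5 bins between them lay higher than the one before, through -0.15, -0.11, -0.08, 0.04 and 0.19. IgG over input gave 0.48 in the highest and -0.14 in the lowest bin. Across the 12731 genes, which are not independent, the log2 fold change correlated with GC at r = 0.14 (Spearman 0.13) and with the share of C on the gene's strand at r = 0.105 (Spearman 0.097), so most of the spread between genes lay within the bins. Among protein-coding genes with 100 to 400 counts, the median went from -0.09 at up to 44% GC to 0.43 above 56%, and among those with at least 1600 counts from -0.25 to 0.00.

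Length and abundance showed weaker patterns. Median log2 fold changes were 0.22 for well-counted genes of up to 500 bases, -0.15 for those of 2000 to 4000 bases and 0.25 for those over 10000 bases, where 263 of 1112 genes were higher and 85 lower. In IgG over input the longest genes stood at 0.23, and the correlation of length with the acRIP log2 fold change was r = 0.02 across genes (Spearman 0.04). The share of genes called fell with the count, from 557 higher and 506 lower of 2726 at 100 to 200 counts to 65 higher and 88 lower of 1401 at 3200 counts or more, and the median from 0.08 to -0.21. By chromosome, the median was -0.21 for the 330 well-counted protein-coding genes of the X chromosome. Of these, 36 were higher (10.9%) and 63 lower (19.1%), against 13.5% and 11.6% of all well-counted protein-coding genes. The median was -0.50 for the 15 genes of the Y chromosome and -0.19 to 0.02 for the autosomes. In IgG over input the X and Y medians were -0.22 and -0.26, and in acRIP over IgG 0.003 and -0.48.

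**Figure D5:**
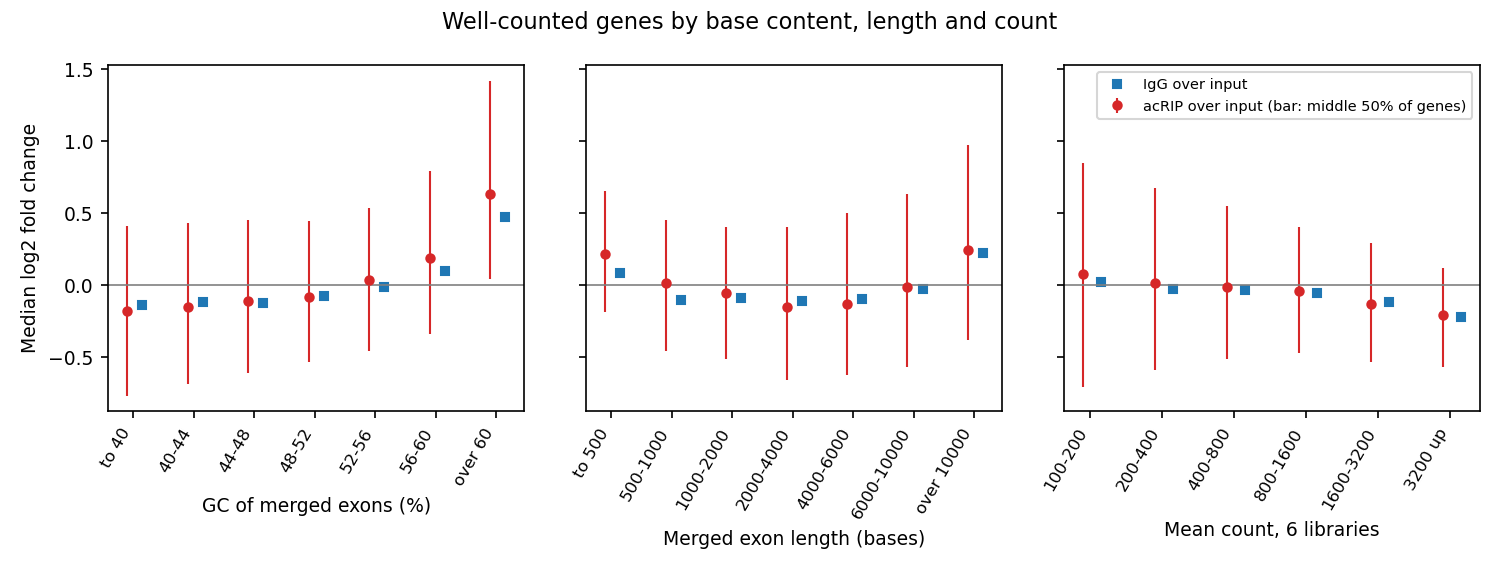
Median log2 fold change (y axis) of well-counted genes in bins of GC content, merged exon length and mean count (x axes) for acRIP over input (red points, bars over the middle 50% of genes) and IgG over input (blue squares). Genes with over 60% GC stood at 0.64 in acRIP and 0.48 in IgG, and the longest genes at 0.25 and 0.23.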

How the data were processed

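Poly(A) RNA of wild-type mouse testis was sequenced in 9 libraries (3 input, 3 IgG, 3 acRIP), grouped by the sample labels. The authors deposited raw counts of uniquely mapped reads per gene. Per the submitters' processing notes and the study's methods, reads were trimmed with Trim Galore 0.6.7, mapped to mm10 with STAR 2.7.10a and counted with featureCounts 2.0.2. Whether counting used strand, and whether mates were counted singly, is not given in the sources used here. Uniquely mapped reads undercount genes with near-identical copies, and oligo(dT) priming with amplification lets identical fragments be counted repeatedly. Gene names and types were taken from GENCODE vM21 (55141 of 55401 identifiers matched) and base content from the RefSeq genome of the same build. The probe's sequence was read from the study's sequence table.

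Counts were filtered with filterByExpr, normalized by TMM and tested with edgeR 4.0.16 (quasi-likelihood, R 4.3.3) on all 9 libraries, with one mean per group and the contrast acRIP minus input. Calls needed a fold change over 2 with adjusted p (Benjamini-Hochberg) under 0.05. Normalized CPM uses the TMM library sizes. Bounds against groups at 0 use 3 counts per library, or 6 for both mates. The test was tried on simulated counts with known changes and the same dispersion for every gene. The simulation did not copy counts in pairs or amplification, so it is no check on the p-values given here. The labels do not say whether the libraries of a group are separate precipitations, so p-values measure only the spread between these libraries, which may be technical. Total counts were 14647542 to 31340090 per library, and bounds cover counting error only.

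The genes named are those the study names or lists primers for in mouse, and its complex, the 10 highest and 10 lowest well-counted protein-coding genes without overlap (clone-like names left out), the highest and lowest of each other gene type, the 5 most abundant per length, the 5 that gained and the 5 that lost most counts, and up to 2 highest and 2 lowest well-counted members of each of 31 lists. Other members are given where a list is counted. The genes, lists and tests were chosen with earlier results of these data known. Lists are described by counts and medians, without a test. The count over the red blood cell list is not reported here.

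Alternatives were other normalizations (RLE, upper quartile, total counts), DESeq2 1.42.0 (the methods' tool), a test against a fold of 2, no filter on low counts, the 6 libraries alone, a replicate block, halved counts, limma 3.58.1 on log2(FPKM + 1) with FPKM computed here from the deposited counts and lengths, minimum mean counts of 50 and 500, protein-coding genes alone, and each library left out in turn. Peaks and positions within transcripts were not analysed here.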

Additional observations from a re-analysis of the deposited data

How the results depend on the processing

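A few settings moved the values given for acRIP over input. With limma on log2(FPKM + 1), where the added 1 shrinks low values, 1829 genes were higher and 2011 lower among all tested genes, and 901 of the well-counted genes were higher and 1090 lower. The balance of well-counted calls also turned with total counts (1507 higher, 1705 lower) and upper quartile (1569 and 1603), where the median of all well-counted genes was -0.127 and -0.0949 against -0.0462. With a minimum mean count of 500, which leaves fewer genes, 557 well-counted genes were higher and 517 lower, the difference in median log2 fold change between genes over 60% GC and up to 40% GC was 0.647, and that between genes over 10 kb and of 2 to 4 kb was 0.265. TEC genes called lower numbered 193 in the fit reported and 107 in the 6 libraries alone and 104 with halved counts, and snoRNA, snRNA and miRNA genes called higher numbered 34 with halved counts, in each case with fewer genes tested. Leaving out each library in turn gave 3945 to 4186 genes higher and 5281 to 5528 lower among all tested genes, and 1651 to 1708 and 1449 to 1501 among well-counted genes. DESeq2 called 4264 and 6346 of all tested genes and 1715 and 1440 of the well-counted genes, and a test against a fold of 2 called 1208 and 1016 of the latter. Same-numbered libraries were not treated as paired in the fit reported. Their deviations correlated at -0.005 to 0.111, which cannot settle whether they share a source, since noise between libraries can hide it. A fit with the replicate block called 3907 higher and 5081 lower, or 1677 and 1487 of the well-counted genes. Among the 188 genes with values by the naming rule, no called gene changed direction under any alternative run. Of the 188, 17 lost their call with limma on FPKM and 8 with the test against a fold of 2. Changes of sign in genes that were not called are left out of this comparison. The medians of Sertoli, endothelial, macrophage and Hox genes, antisense genes and processed pseudogenes changed sign between settings. Counts in pairs and amplification limit the precision of genes with few counts.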
